A study of Mus musculus with 12 samples.

Results

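The comparison described here sets basal tumor cells that had switched on a reporter of TGF-beta signalling against basal tumor cells that had not. It comprised 6 of the 12 libraries of the series, 3 reporter-positive and 3 reporter-negative, chosen by their labels and described across all genes. The cells came from cutaneous squamous cell carcinomas of mice of the FVB strain. All 6 libraries were of epithelial tumor cells that carried a Rosa-YFP mark and were sorted for CD49f (integrin alpha 6) and CD29 (integrin beta 1), so both groups share that mark and that gate. The groups differ in the fluorescent protein mScarlet, which reported the signalling: it was present in the positive cells and absent from the negative cells. None of the sources used here gives the age or sex of the mice, the driver of the YFP mark, the construct of the reporter or the number of tumors behind a library. A reporter records that a cell responded, not when, and its own transcript was not analysed here. The other 6 libraries are of tumor macrophages and serve here only as a level for leukocyte markers.

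TGF-beta ligands bind a pair of receptor kinases, which phosphorylate the transcription factors Smad2 and Smad3. With Smad4 these enter the nucleus and raise or lower the transcription of many genes, among them genes of inhibitors that shut the pathway off again. In epidermis the pathway is known as a brake on keratinocyte division, and in squamous cell carcinoma it is also known for invasion and for tolerance of drugs. Basal keratinocytes divide while attached to the basement membrane, and cells that leave this layer stop dividing and build desmosomes, barrier lipids and finally the cornified envelope.

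Total counts ran from 27951632 to 35088897 per library, and 13604 genes passed a filter on low counts. Levels are in CPM, counts divided by a normalized library size, in the order of replicates 1, 2 and 3. A count of 3 corresponds to between 0.0851 and 0.107 CPM. Replicates 1 and 3 of a group lay close together and replicate 2 stood apart in both groups. The chi-square of their counts per degree of freedom was 3.14 between negative replicates 1 and 3 and 1.63 between positive replicates 1 and 3, against 47.6 to 101 in the pairs with replicate 2. The first principal component, with 54.8% of the variance, separated replicate 2 from the others, and the second, with 28%, lay lower in each negative library than in the positive library of its number. No source says that replicates came from separate animals, so the p-values speak only to the scatter among these 6 samples, part or all of which may be technical.

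The markers of the labelled cell type were abundant. The summed level of 10 basal keratinocyte markers, led by Krt14 and Krt5, was 69150, 76820 and 70380 CPM in the negative and 66600, 75640 and 66130 CPM in the positive libraries. The integrin behind the CD49f gate, Itga6, was at 1235, 1253 and 1230 CPM in the negative and 1218, 887 and 1233 CPM in the positive libraries, and Itgb1, which encodes CD29, was at 1294, 1224 and 1286 CPM in the negative and 1319, 1042 and 1338 CPM in the positive libraries. Neither integrin passed a test with the block (adjusted p = 0.304 and 0.677) or without it (0.589 and 0.889). Other cells were rare. The 29 leukocyte markers summed to 38.9, 194.4 and 35.2 CPM in the negative and 49.1, 255.9 and 45.8 CPM in the positive libraries, against 50100 to 71070 CPM in the tumor macrophages. Of these markers 4 were at 0 in every tumor library, among them the T cell gene Cd3e and the B cell gene Ms4a1. The pan-leukocyte gene Ptprc had 24 to 78 counts. Within every number the leukocyte sum was the higher one in positive cells, and replicate 2 had the largest sum of each group. Fibroblast markers summed to between 58.7 and 224.3 CPM, endothelial markers to between 32.6 and 44.2 CPM, and neither was higher in the positive library of more than 1 number. Suprabasal keratinocyte markers summed to 683.1, 1058 and 737.6 CPM in the negative and 870.5, 2122 and 835.7 CPM in the positive libraries. Xist had 0 to 5 counts and the Y-linked gene Ddx3y 886 to 1459 counts in the 6 libraries, so none differed from the others in this respect. In bulk libraries fewer cells of a type and less RNA per cell cannot be told apart.

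**Figure D1:**
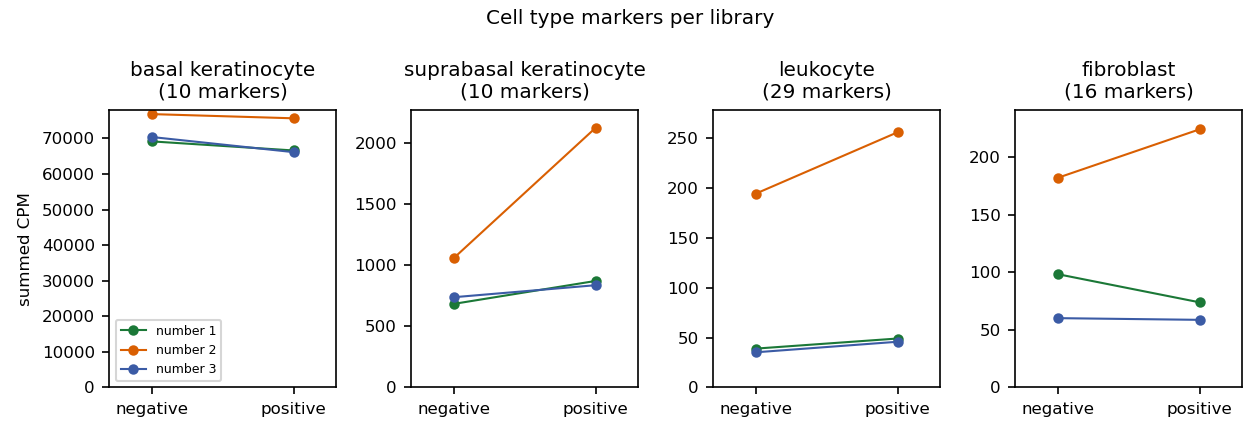
Summed CPM of cell type markers (vertical axis, linear, from 0) in the negative and positive library of each replicate number, joined by a line, with 1 panel per cell type. Basal markers lie between 66130 and 76820 CPM in all libraries, and replicate 2 (orange) has the largest sum of each group in all 4 panels.

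Each gene was tested with edgeR's quasi-likelihood test in a fit without the replicate number and in a fit with the number as a block, with Benjamini-Hochberg adjustment over all 13604 genes. Without the block 110 genes passed (0.809%), 78 of them higher (0.573%) and 32 lower (0.235%) in the positive cells. With the block 1450 were higher (10.7%) and 999 lower (7.34%), and all 110 genes of the first fit were among them. In 1986 genes (14.6%) every positive library lay above every negative one, and in 1844 (13.6%) below. The counts of each gene list below are to be read beside these shares. The lists were chosen with earlier results of these data known, so their counts describe them and are no independent test. In what follows a gene is said to have risen or fallen where it passed with the block, its log2 difference is from that fit with its standard error, and the adjusted p of both fits is given for the genes described in full. After a log2 difference ± stands for the standard error, and after a mean CPM for the SD over 3 libraries. Nearly identical genes, named as such below, are uncertain because the counting could split their reads. Over all genes the median log2 difference was 0.00. The genes that rose moved further than those that fell. With the block 339 of the genes that rose differed by more than 2-fold, against 39 of those that fell. The median difference of the former within replicate numbers 1, 2 and 3 was 0.45, 0.58 and 0.45, and of the latter -0.29, -0.41 and -0.30.

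**Figure D2:**
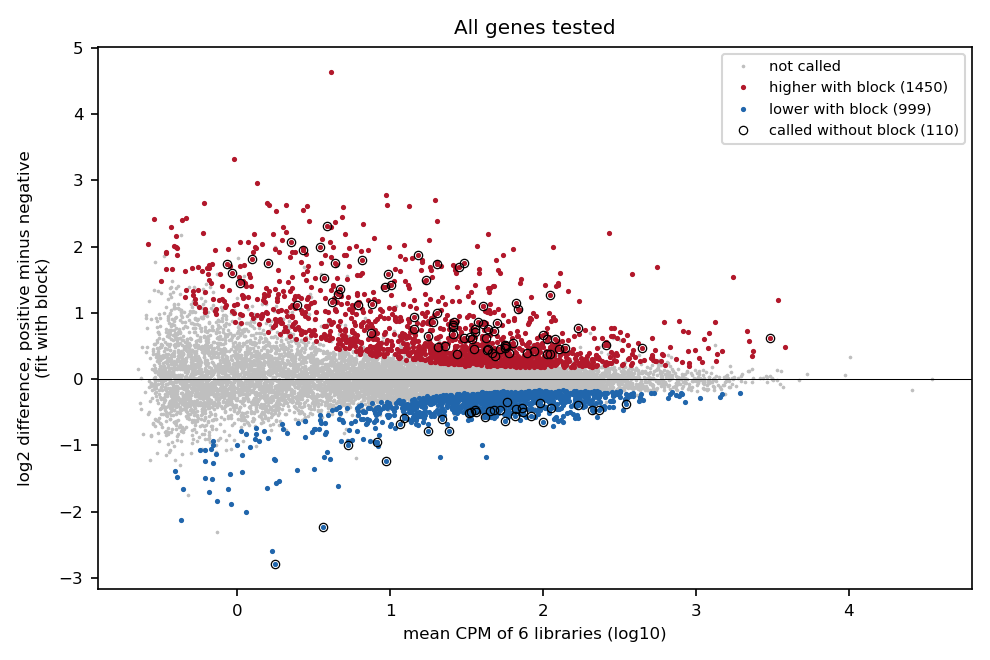
Log2 difference of every tested gene in the fit with the block (vertical axis) against its mean CPM over the 6 libraries (horizontal axis, log10). Red points rose (1450), blue points fell (999), and black circles mark the 110 genes that also passed without the block.

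Cd200 (ENSMUSG00000022661, chromosome 16, 45382135 to 45409053, minus strand, coordinates on GRCm38 here and below) encodes a surface glycoprotein that restrains myeloid cells. It was at 11.4, 16.3 and 12.2 CPM in the negative and 44.7, 37.5 and 45.8 CPM in the positive libraries. All 3 positive libraries lay above all negative ones, replicate 2 included, and Cd200 rose by 1.69 ± 0.15 (adjusted p = 0.00444 with the block and 0.0341 without it). Epb41l3 (ENSMUSG00000024044, chromosome 17, 69075683 to 69289989, plus strand) encodes a membrane skeleton protein of the band 4.1 family that links it to cell contacts. It was at 6.37, 5.01 and 6.58 CPM in the negative and 1.23, 1.12 and 1.46 CPM in the positive libraries, with no overlap and with all numbers alike. It fell by 2.24 (SE 0.14, adjusted p = 0.00213 with the block and 0.0341 without it). Dnase1l3, the gene of a secreted DNase, was at 1.51, 1.18 and 1.08 CPM in the negative and 5.25, 8.76 and 5.22 CPM in the positive libraries and rose by 2.31 ± 0.22 (adjusted p = 0.00492 with the block and 0.0392 without it). Further genes that passed in both fits were Pcdh1, a protocadherin, Lmo7, a protein of adherens junctions, Cdk5r1, an activator of the kinase Cdk5, Tmprss11b, a membrane serine protease, Creb3l3, a membrane-bound transcription factor, and Cyp2b10, a cytochrome P450. Their differences ran from 1.73 for Tmprss11b to 1.99 for Lmo7, and Lmo7 went from 1.35 ± 0.181 to 5.59 ± 2.15 CPM (SD, n = 3). Cdk5r1, Creb3l3, Cyp2b10 and Pcdh1 lay between, at 1.79, 1.75, 1.95 and 1.87. Among the genes that fell in both fits, Hmgn2, a nucleosome-binding protein, was at 119, 123 and 126 CPM in the negative and 78.5, 73.5 and 82.4 CPM in the positive libraries (difference -0.65, adjusted p = 0.00305 with the block and 0.0341 without it). Pmf1, a kinetochore subunit, differed by -0.64, and Efemp1, an extracellular matrix fibulin, by -0.78. Syt12, a synaptotagmin, differed by -0.99, and Sapcd2, a regulator of spindle orientation, by -0.59.

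**Figure D3:**
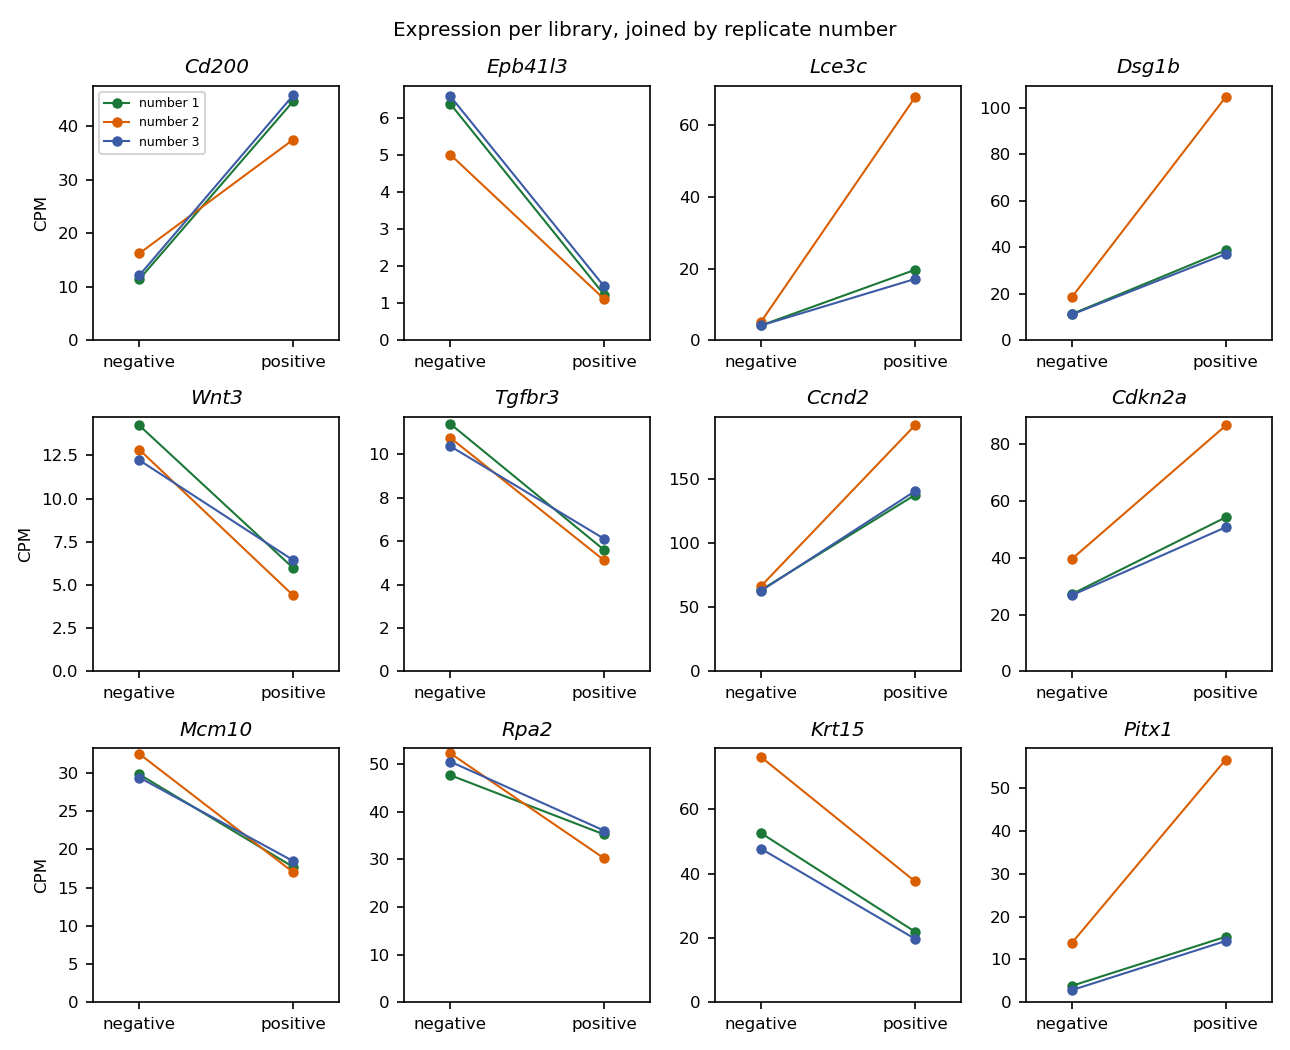
CPM of 12 genes (vertical axes, linear, from 0) in the negative and positive library of each replicate number, joined by a line, colours marking the number. All 12 genes were chosen among those that passed with the block, so a shared direction within the 3 numbers comes with that choice. For Krt15 and Pitx1 replicate 2 lies on another level than replicates 1 and 3 in both groups.

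The TGF-beta pathway itself was followed by role. Of 47 listed genes of ligands, receptors, Smads and extracellular regulators 44 were tested, of which 9 rose and 3 fell (10.7% of all genes rose and 7.34% fell), with a median of 0.07. With replicates 1 and 3 summed 6 were higher and 1 lower, and without number 1, 2 or 3 the higher genes numbered 7, 22 and 6. Among the ligands, Tgfb1 was at 108, 98.2 and 103 CPM in the negative and 100.1, 93.9 and 99.7 CPM in the positive libraries, and the groups overlapped (adjusted p = 0.317 with the block and 0.589 without it). Inhbb, an activin subunit, rose by 0.43 ± 0.08 from 25.9 ± 2.31 to 34.9 ± 0.86 CPM (adjusted p = 0.0171 with the block and 0.0744 without it). Bmp7 rose by 0.59 ± 0.08, with 16.9, 45.8 and 16.6 CPM in the negative and 28.6, 61.2 and 25.3 CPM in the positive libraries, so the positive library was higher within each number while the groups overlapped (adjusted p = 0.00914 with the block and 0.635 without it). Among the receptors, the signalling receptors Tgfbr1 and Tgfbr2 were at 38.9, 35.3 and 41.6 CPM in the negative and 44.1, 29.3 and 42.1 CPM in the positive libraries and at 119.7, 134 and 112 CPM in the negative and 121, 117 and 121 CPM in the positive libraries. Their adjusted p with the block was 0.897 and 0.869, and without it 0.991 and 0.913. Acvr1b, the type I receptor of activin, rose by 0.43 ± 0.06 (adjusted p = 0.00862 with the block and 0.131 without it). Tgfbr3 (ENSMUSG00000029287, chromosome 5, 107106570 to 107289629, minus strand) encodes betaglycan, the co-receptor that presents TGF-beta to its receptors. It was at 11.4, 10.8 and 10.4 CPM in the negative and 5.597, 5.12 and 6.11 CPM in the positive libraries, with every positive library below every negative one. Tgfbr3 fell by 0.95 (SE 0.10, adjusted p = 0.00624 with the block and 0.0392 without it) and was the member of this list that passed in both fits.

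The Smads were near level: Smad2, Smad3 and Smad4 differed by 0.04, 0.15 and 0.07, with adjusted p of 0.648, 0.0984 and 0.422 with the block. Smad7, the inhibitory Smad that the pathway itself induces, was at 35.3, 14.6 and 30.9 CPM in the negative and 40.5, 18.2 and 38.6 CPM in the positive libraries. It rose by 0.28 ± 0.06 (adjusted p = 0.0285 with the block and 0.785 without it), a step that was small beside the gap between replicate 2 and the others. Smurf1, the ubiquitin ligase that works with Smad7 on the receptor, was at 109.9, 91.7 and 107 CPM in the negative and 139.8, 133 and 142 CPM in the positive libraries and rose by 0.43 ± 0.06 (adjusted p = 0.00831 with the block and 0.0769 without it). Fstl1, a follistatin-like secreted protein, rose by 1.19 ± 0.15.

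Target genes known from TGF-beta responses rose more often than fell. Of 41 tested 13 rose and 1 fell (10.7% and 7.34% of all genes), with 0 called without the block and a median of 0.20. Every positive library lay above every negative one in 8 of them and below in 1, against 14.6% and 13.6% of all genes. The higher ones numbered 7 with replicates 1 and 3 summed, and without number 1, 2 or 3 they were 12, 23 and 7. Bhlhe40, a transcriptional repressor, was at 344, 153 and 340.3 CPM in the negative and 515, 272 and 515 CPM in the positive libraries and rose by 0.67 ± 0.07 (adjusted p = 0.00492 with the block and 0.4202 without it). Replicate 2 was the lowest library of each group. Pdgfb, a growth factor chain, rose by 0.63 ± 0.08 and Mmp9, a gelatinase, by 0.51 ± 0.05, while Pdgfa, the sister chain of Pdgfb, fell by 0.32 (SE 0.05). Some widely used readouts of the pathway did not pass in either fit. Tgfbi was at 968, 1173 and 985 CPM in the negative and 987, 1093 and 999 CPM in the positive libraries (adjusted p = 0.8501 with the block and 0.934 without it), and Pmepa1 at 144, 137 and 130.2 CPM in the negative and 161, 144 and 157 CPM in the positive libraries (adjusted p = 0.0817 and 0.254). Of these, Pmepa1 was higher in positive cells within every number and Tgfbi was not. Ctgf was at 1.74, 1.21 and 1.48 CPM in the negative and 2.63, 1.61 and 3.09 CPM in the positive libraries (adjusted p = 0.0539 and 0.242).

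Genes of DNA replication were lower in the positive cells. All 61 listed genes, which include the replicative helicase, its loaders, the polymerases and nucleotide synthesis, passed the filter. Of these 50 fell and 0 rose, 7 of them also without the block, and the median difference was -0.42 (-0.34, -0.66 and -0.36 within numbers 1, 2 and 3). In 59 of the 61 every positive library lay below every negative one, against 13.6% of all genes. The list was chosen with earlier results of these data known, so this contrast is a description and no independent test. A total of 34 were lower with replicates 1 and 3 summed, and without number 1, 2 or 3 they were 47, 58 and 41. Mcm10, which helps to activate the helicase, was at 29.8, 32.5 and 29.4 CPM in the negative and 17.7, 17.02 and 18.5 CPM in the positive libraries and fell by 0.78 (SE 0.07, adjusted p = 0.00492 with the block and 0.0341 without it). Cdc7, the kinase gene that fires replication origins, was at 13.4, 11.03 and 12.5 CPM in the negative and 7.81, 6.17 and 8.74 CPM in the positive libraries and fell by 0.71 (adjusted p = 0.00977 with the block and 0.0906 without it). Rpa2, a subunit of the protein that coats single-stranded DNA, was at 47.7, 52.3 and 50.5 CPM in the negative and 35.2, 30.2 and 36.03 CPM in the positive libraries and fell by 0.57 (adjusted p = 0.00977 with the block and 0.04995 without it). Rfc3, a subunit of the clamp loader, fell by 0.57 from 54.8 ± 4.497 to 36.9 ± 3.62 CPM (adjusted p = 0.00492 with the block and 0.0628 without it). Pold2 and Tyms, a polymerase delta subunit and thymidylate synthase, fell by 0.56 and 0.43, and both passed without the block (adjusted p = 0.0408 and 0.0475). Dut, which clears dUTP, fell by 0.56 (adjusted p = 0.0393 without the block) and Dctpp1, a second cleaner of the nucleotide pool, by 0.47 (0.0475 without it).

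Promoters of replication genes are known for sites of E2F factors. The 250 bases before the start of 50 of the 61 genes (RefSeq, GRCm38.p6) were searched on both strands for TTCCCGC, for the variant TTGGCGC, for the variant TTCGCGC and for the variant TTGCCGC. A match in any of its promoters was held by 21 of the 50 genes (42%), against 7.89% of 32851 single promoters of the same length. Of the 40 genes that fell for which a promoter was at hand, 17 held a match (42.5%), near the share of the whole list. A gene can have several promoters, so the share per gene and the share per promoter are unlike measures. The 32851 also take in promoters of genes not tested here. No share over the tested genes was computed, because a promoter was at hand for only 74.1% of them. Windows are shown for the genes of smallest p with the block among the replication genes that fell and held a match. These genes fell by between 0.47 for Chaf1a, a histone chaperone, and 0.71 for Cdc7. The windows of 60 bases read 5′ to 3′ on the strand of the gene, and capitals mark the matches.
Rfc3: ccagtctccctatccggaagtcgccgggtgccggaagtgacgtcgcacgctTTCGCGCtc
Chaf1a: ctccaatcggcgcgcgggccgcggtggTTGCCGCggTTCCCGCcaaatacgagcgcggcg
Cdc7: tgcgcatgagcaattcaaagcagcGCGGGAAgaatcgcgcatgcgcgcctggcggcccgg
Rpa2: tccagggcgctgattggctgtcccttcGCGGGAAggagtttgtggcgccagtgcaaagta
Mcm5: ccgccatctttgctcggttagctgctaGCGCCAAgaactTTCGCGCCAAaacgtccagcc

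The windows lie at chr5:151651209-151651268 (minus strand) for Rfc3, chr17:56040333-56040392 (plus strand) for Chaf1a, chr5:106964311-106964370 (plus strand) for Cdc7, chr4:132768296-132768355 (plus strand) for Rpa2 and chr8:75109318-75109377 (plus strand) for Mcm5. In Mcm5, a subunit of the helicase, overlapping and neighbouring matches lie within the same window. A match is a description of the letters and no measure of binding.

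Genes of mitosis were lower too. Of 60 tested 47 fell and 0 rose, 1 of them without the block, with a median of -0.37 (-0.30, -0.57 and -0.28 within numbers). Every positive library lay below every negative one in 24 of the 60, against 13.6% of all genes. Summing replicates 1 and 3 left 23 lower, and without number 1, 2 or 3 they were 47, 56 and 35. Ccnb2, a mitotic cyclin, was at 94.6, 84.3 and 96.9 CPM in the negative and 68.2, 50.8 and 67.4 CPM in the positive libraries and fell by 0.57 (SE 0.06, adjusted p = 0.00624 with the block and 0.0917 without it). Cdc20, the activator of the anaphase-promoting complex, was at 299, 223 and 296 CPM in the negative and 229, 157 and 227 CPM in the positive libraries, where negative replicate 2 lay at the level of the positive replicates 1 and 3. It fell by 0.42 (adjusted p = 0.007302 with the block and 0.279 without it). Spc24, a kinetochore subunit, fell by 0.49 and passed in both fits (adjusted p = 0.00769 with the block and 0.0412 without it). Cenpa, the histone of centromeres, was at 121, 118 and 123 CPM in the negative and 92.9, 81.6 and 93.3 CPM in the positive libraries and fell by 0.44 (adjusted p = 0.00748 with the block and 0.05897 without it). Kif22, a chromosome motor, and Aurkb, a kinase of the chromosomal passenger complex, fell by 0.53 and 0.39.

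A site found in many promoters of mitotic genes is the cell cycle homology region, TTTGAA, which was searched on both strands in the same windows. It was found before 19 of 51 genes of the mitosis list (37.3%), counted per gene, against 16% of all single promoters. Of the 38 mitosis genes that fell for which a promoter was at hand, 14 held it (36.8%), near the share of the whole list. In the replication list 8 of 50 genes (16%) held it, and the E2F letters were found before 8 of the 51 mitosis genes (15.7%). The windows of Ccnb2, Cdc20 and Kif22 are shown, with the match in capitals, because these were among the 6 mitosis genes of smallest p.
Ccnb2: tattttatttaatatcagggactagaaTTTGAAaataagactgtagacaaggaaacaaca
Cdc20: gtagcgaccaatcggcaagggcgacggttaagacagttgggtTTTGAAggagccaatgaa
Kif22: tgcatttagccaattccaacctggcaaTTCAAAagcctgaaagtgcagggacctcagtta

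The windows lie at chr9:70421689-70421748 (minus strand) for Ccnb2, chr4:118437344-118437403 (minus strand) for Cdc20 and chr7:127042603-127042662 (minus strand) for Kif22. In Kif22 the match is on the other strand.

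In the list of DNA repair genes, many of which are transcribed in S phase, 12 of 35 fell and 0 rose (7.34% and 10.7% of all genes), with a median of -0.30. Once replicates 1 and 3 were summed, 4 were lower, and without number 1, 2 or 3 they were 10, 21 and 7. Chek1, the replication checkpoint kinase, went from 19.8 ± 0.872 to 13.3 ± 2.996 CPM and fell by 0.59 (adjusted p = 0.02702 with the block and 0.145 without it).

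**Figure D4:**
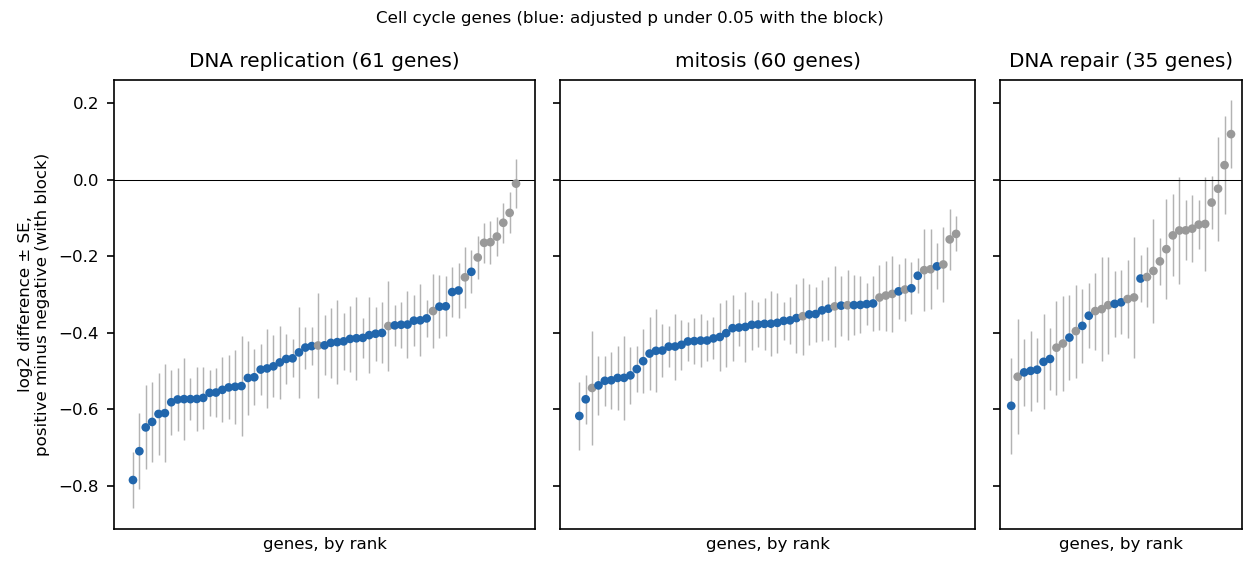
Log2 difference with its standard error (vertical axis, fit with the block) of each tested gene of the replication, mitosis and DNA repair lists, ordered by size within a panel. Blue genes passed an adjusted p of 0.05 with the block: 50 of 61, 47 of 60 and 12 of 35, and all genes of the first 2 panels lie below 0.

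Regulators that set the pace of the cycle moved in both directions. Of 27 tested cyclins, inhibitors of cyclin-dependent kinases and E2F factors, 4 rose and 10 fell (10.7% and 7.34% of all genes). Those that rose were Ccnd2 and 3 inhibitor genes. Not every inhibitor gene rose: Cdkn2c differed by -0.57, -0.377 and -0.6 without number 1, 2 or 3 (edgeR, with the block). Ccnd2, which encodes cyclin D2, was at 63.6, 66.6 and 62.9 CPM in the negative and 138, 192 and 141 CPM in the positive libraries and rose by 1.27 ± 0.09 (adjusted p = 0.00227 with the block and 0.0389 without it). Cdkn2a, the gene of the inhibitors p16 and p19Arf, was at 27.2, 39.6 and 26.8 CPM in the negative and 54.3, 86.6 and 50.8 CPM in the positive libraries, with each positive library above each negative one, and rose by 1.02 ± 0.06 (adjusted p = 0.00201 with the block and 0.105 without it). The counts do not tell its 2 products apart. Cdkn2b (p15), a known target of Smads, was at 20.8, 18.3 and 19.1 CPM in the negative and 30.1, 36.3 and 26.4 CPM in the positive libraries and Cdkn1a (p21) at 239, 194 and 235 CPM in the negative and 339, 389 and 323 CPM in the positive libraries. Both rose, by 0.66 ± 0.11 and 0.66 ± 0.11 (adjusted p = 0.0764 and 0.0628 without the block). Ccne2, the S phase cyclin E2, fell by 0.60 from 15.7 ± 0.557 to 10.4 ± 1.43 CPM (adjusted p = 0.0169 with the block and 0.0829 without it). With replicates 1 and 3 summed 4 were higher and 1 lower, and the lower genes numbered 5, 17 and 3 without number 1, 2 or 3.

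Genes known to be induced by p53 rose in the same comparison. Of 26 tested 15 rose and 0 fell (10.7% and 7.34% of all genes), 0 of them called without the block, with a median of 0.36. Once replicates 1 and 3 were summed, the count was 9, and without number 1, 2 or 3 it was 11, 16 and 10. Zmat3, an RNA-binding protein, was at 28.1, 38.1 and 28.7 CPM in the negative and 45.2, 56.02 and 43.6 CPM in the positive libraries, and rose by 0.61 ± 0.06 (adjusted p = 0.00446 with the block and 0.111 without it). Plk2, a kinase of the polo family, was at 299, 198 and 300 CPM in the negative and 448, 302 and 447 CPM in the positive libraries and rose by 0.59 ± 0.05 (adjusted p = 0.003195 with the block and 0.211 without it). Btg2, an antiproliferative gene that is also an immediate early gene, was at 259.9, 100.3 and 249 CPM in the negative and 446, 162 and 443 CPM in the positive libraries. It rose by 0.77 ± 0.05, while replicate 2 of both groups lay below the other negative libraries. Sesn2 and Pmaip1 rose by 0.65 ± 0.07 and 0.41 ± 0.05, and Ccng1, the gene of cyclin G1, by 0.51 ± 0.07.

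Genes of keratinocyte differentiation were higher in the positive cells although both groups came from the basal gate. Of 40 listed transcription factor genes 37 were tested, of which 17 rose and 0 fell, 2 of them also without the block (median 0.25, 0.26, 0.42 and 0.28 within numbers). Prdm1, which encodes Blimp1, a factor of terminal differentiation, was at 5.24, 3.63 and 5.59 CPM in the negative and 14.9, 16.6 and 12.2 CPM in the positive libraries and rose by 1.59 ± 0.19 (adjusted p = 0.00748 with the block and 0.0412 without it). Elf3, an epithelial ETS factor, was at 14.3, 11.8 and 14.6 CPM in the negative and 25.9, 27.5 and 27.5 CPM in the positive libraries and rose by 0.997 ± 0.09 (adjusted p = 0.00446 with the block and 0.0367 without it). In both genes the groups lay apart and replicate 2 was near the other libraries of its group. Zfp750, an activator of the late epidermal programme, was at 121, 75.8 and 123 CPM in the negative and 256, 203 and 251 CPM in the positive libraries and rose by 1.17 ± 0.08 (adjusted p = 0.00235 with the block and 0.0677 without it). Pitx1, a homeobox gene active in squamous carcinoma cells, was at 3.87, 13.9 and 2.87 CPM in the negative and 15.3, 56.6 and 14.3 CPM in the positive libraries, so each positive library was several-fold above the negative one of its number. It rose by 2.09 ± 0.09 (adjusted p = 0.00149 with the block and 0.225 without it), and without the block the level of replicate 2 in both groups enters the spread. Cebpa and Grhl1 rose by 0.82 ± 0.07 and 0.88 ± 0.09, and Rora, a nuclear receptor, by 0.94 ± 0.09.

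Cornified envelope genes, which encode the protein shell of dead surface cells and the transglutaminases that link it, had the largest median of the lists at 1.84 (1.11, 2.28 and 0.95 within numbers 1, 2 and 3). Of 54 listed genes 32 passed the filter, and of those 25 rose and 0 fell, with 0 called without the block. The higher ones numbered 23 with replicates 1 and 3 summed, and without number 1, 2 or 3 they were 26, 24 and 24. A filter of at least 1 CPM in 3 libraries, which tests fewer of the genes, left 16 that were higher. Any gene that passed the filter on low counts through the positive libraries alone stays in these counts and in the median. Lce3c was at 4.18, 5.203 and 4.17 CPM in the negative and 19.6, 67.6 and 17.1 CPM in the positive libraries. The negative libraries were alike and positive replicate 2 was several times the other positive libraries. Lce3c rose by 2.70 ± 0.31 (adjusted p = 0.00678 with the block and 0.0769 without it) and by 2.13 without number 2. Tgm1, the main transglutaminase of the envelope, was at 20.3, 27.03 and 19.5 CPM in the negative and 46.1, 141 and 48.1 CPM in the positive libraries and rose by 1.64 ± 0.23 (adjusted p = 0.00958 with the block and 0.116 without it). Sprr2e, Sprr2g and Sprr2h, small proline-rich proteins, rose by 2.44 ± 0.31, 1.85 ± 0.26 and 1.52 ± 0.22, and Lce3d by 2.60 ± 0.31. Sprr2g was at 5.15, 4.09 and 5.16 CPM in the negative and 14.3, 26.9 and 13.5 CPM in the positive libraries, with groups apart. Members of the Sprr2 and Lce3 families are near-identical, and the counting could split their reads. Of 10 tested suprabasal markers 6 rose and 0 fell, and 8 had a positive difference without the block. Krt10 went the other way, at 15, 60.3 and 16.4 CPM in the negative and 14, 48.8 and 12.3 CPM in the positive libraries. Lor was lower in the positive library of numbers 1 and 3 and higher in that of number 2. How far later cells in the gate take part in the rise of the envelope genes was not tested.

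AP-1 sites are known from promoters of envelope genes. TGACTCA and its reverse complement TGAGTCA were searched in the 250 bases before the start of 28 of the 32 genes (RefSeq, GRCm38.p6, both strands). They were found before 12 of the 28 genes (42.9%), counted per gene, against 4.46% of all single promoters. Of the 21 genes that rose for which a promoter was at hand, 8 held them (38.1%). In the barrier lipid list 0 of 19 genes held them. Windows of 3 genes that rose are shown with the match in capitals. Ivl encodes involucrin.
Sprr2e: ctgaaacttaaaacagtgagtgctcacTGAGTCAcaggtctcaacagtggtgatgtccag
Sprr2h: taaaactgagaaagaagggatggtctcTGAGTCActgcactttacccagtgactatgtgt
Ivl: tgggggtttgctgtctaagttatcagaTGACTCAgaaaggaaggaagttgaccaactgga

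The windows lie at chr3:92351923-92351982 (plus strand) for Sprr2e, chr3:92385460-92385519 (plus strand) for Sprr2h and chr3:92573819-92573878 (minus strand) for Ivl. The first base of the match lies 193 bases before the start in Sprr2e, 198 in Sprr2h and 116 in Ivl. No match says only that these letters are not in this window.

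Most keratins that changed were higher. Of 19 tested 7 rose and 1 fell (10.7% and 7.34% of all genes), 0 of them without the block. Krt15, a keratin of basal and hair follicle stem keratinocytes, was at 52.6, 76.2 and 47.7 CPM in the negative and 21.95, 37.6 and 19.8 CPM in the positive libraries and fell by 1.18 (adjusted p = 0.00201 with the block and 0.112 without it). Each positive library lay below each negative one. Krt16 and Krt6b, keratins of wounded and hyperproliferative epidermis, were at 1739, 2591 and 1683 CPM in the negative and 3511, 7614 and 3425 CPM in the positive libraries and at 562, 1253 and 541 CPM in the negative and 1335, 5567 and 1286 CPM in the positive libraries. They rose by 1.20 ± 0.12 and 1.55 ± 0.18 (adjusted p = 0.00492 and 0.00713 with the block, 0.129 and 0.215 without it). Krt8, a keratin of simple epithelia that carcinomas can express, was at 24.5, 36.03 and 23.1 CPM in the negative and 51.5, 67.5 and 49.3 CPM in the positive libraries and rose by 1.02 ± 0.06 (adjusted p = 0.00201 with the block and 0.0815 without it). Krt13, a keratin of internal stratified epithelia, was at 1.17, 3.44 and 1.503 CPM in the negative and 4.52, 42.3 and 4.299 CPM in the positive libraries. It rose by 2.62 ± 0.40, and by 1.72 without number 2, so the difference was larger in that number. Krt6b has a near-identical neighbour in Krt6a.

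Barrier lipid genes make the ceramides and acids between surface cells. Of 26 listed 23 were tested, of which 18 rose and 0 fell (median 0.75, 0 without the block). A total of 15 were higher with replicates 1 and 3 summed. Abca12, the lipid transporter of lamellar granules, was at 22.8, 25.8 and 22.1 CPM in the negative and 49.7, 88.4 and 51.9 CPM in the positive libraries and rose by 1.38 ± 0.13 (adjusted p = 0.00446 with the block and 0.05897 without it). Elovl4, which elongates very long chain fatty acids, was at 21.5, 28.2 and 23.1 CPM in the negative and 53.98, 132 and 54.3 CPM in the positive libraries and rose by 1.60 ± 0.19 (adjusted p = 0.00713 with the block and 0.0881 without it). The acylceramide genes Cyp4f39 and Pnpla1 rose by 1.65 ± 0.14 and 1.43 ± 0.13, and the ceramidase gene Acer1 by 2.11 ± 0.30.

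Serine proteases of the surface shed the outer cells, and their inhibitors restrain these proteases. All 28 tested of 35 listed had a positive difference, 16 rose and 2 of these passed without the block (median 0.98). With replicates 1 and 3 summed the count was 16. Those 2 were Serpinb2, the plasminogen activator inhibitor PAI-2, and Tmprss11b. Serpinb2 was at 47.5, 37.9 and 49.5 CPM in the negative and 97.2, 82.1 and 99.7 CPM in the positive libraries and rose by 1.05 ± 0.05 (adjusted p = 0.00149 with the block and 0.0392 without it), with replicate 2 the lowest of each group. Spink5, the inhibitor LEKTI, was at 15, 37.5 and 13.7 CPM in the negative and 46.96, 171 and 45.8 CPM in the positive libraries and rose by 1.88 ± 0.11 (adjusted p = 0.00201 with the block and 0.176 without it). Prss27, a membrane protease at the edge of detection, was at 0.199, 0.0982 and 0.1702 CPM in the negative and 1.42, 2.85 and 0.924 CPM in the positive libraries. It passed the filter on low counts only through the positive libraries and so had to differ, and no fold or test is given. Prss27, and any other gene that passed in this way, remains in the counts and the median of this list.

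Of antimicrobial and alarmin genes 7 of 18 tested rose (10.7% of all genes), 4 with replicates 1 and 3 summed and 6, 8 and 4 without number 1, 2 or 3. Slpi, a protease inhibitor and antimicrobial, was at 23.2, 21.4 and 25.6 CPM in the negative and 66.1, 178 and 65.2 CPM in the positive libraries and rose by 1.97 ± 0.32 (adjusted p = 0.0139 with the block and 0.0769 without it). The alarmins S100a8 and S100a9 rose by 1.38 ± 0.24 and 1.45 ± 0.30, and by 0.95 and 0.93 without number 2. Neutrophils also express these 2 genes, and the leukocyte sum was larger in positive than in negative cells within every number. Among the largest members of that sum were macrophage and antigen-presenting genes such as H2-Ab1 and Lyz2, so it is no measure of neutrophils. Csf3r, a listed leukocyte marker that neutrophils carry, was at 2.25, 0.916 and 2.44 CPM in the negative and 1.87, 1.08 and 2.13 CPM in the positive libraries. The part of leukocytes in the result was not tested.

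Junction genes rose in both lists tested. Of 14 desmosome genes 10 rose and 0 fell, 2 of them also without the block (median 0.45), and with replicates 1 and 3 summed 7 were higher. Dsg1b, a desmoglein of differentiating cells, was at 11.4, 18.7 and 11.2 CPM in the negative and 38.7, 105 and 37.1 CPM in the positive libraries and rose by 2.02 ± 0.15 (adjusted p = 0.00293 with the block and 0.0881 without it). Dsg3, the desmoglein of basal cells, was at 379, 384 and 362 CPM in the negative and 525, 510.3 and 522 CPM in the positive libraries and rose by 0.47 ± 0.05 (adjusted p = 0.00597 with the block and 0.0408 without it). Dsg1b shares most of its sequence with Dsg1a and Dsg1c. Dsc2, a desmocollin, rose by 1.40 ± 0.17 from 64.6 ± 5.08 to 180.2 ± 79.5 CPM.

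Of 33 tested genes of adherens and tight junctions 17 rose and 0 fell (median 0.32). Summing replicates 1 and 3 left 9 higher, and without number 1, 2 or 3 they were 13, 25 and 11. Cdh1, the gene of E-cadherin, was at 202, 226 and 197 CPM in the negative and 282, 367 and 279.9 CPM in the positive libraries, with every positive library above every negative one, and rose by 0.56 ± 0.06 (adjusted p = 0.0058 with the block and 0.0881 without it). Cldn4, a claudin, was at 99.6, 17.97 and 95.9 CPM in the negative and 238, 97.2 and 229.8 CPM in the positive libraries. It rose by 1.60 ± 0.22 (adjusted p = 0.00956 with the block and 0.307 without it), and here replicate 2 was the low one in both groups. Nectin4 and Cgnl1 rose by 1.40 ± 0.16 and 1.21 ± 0.14.

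Attachment to the basement membrane moved less. Of 29 tested genes 5 rose and 0 fell, beside 10.7% and 7.34% of all genes, with a median of -0.004. With replicates 1 and 3 summed 0 were called (without number 1, 2 or 3, 1, 12 and 0). Lama3 and Lamb3, laminin chain genes, rose by 0.39 ± 0.05 and 0.27 ± 0.06.

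In the list of epithelial-mesenchymal transition genes 2 of 21 rose and 0 fell, close to the 10.7% of all genes that rose, and 5, 6 and 3 were higher without number 1, 2 or 3. Those that rose were Vim, at 29.4, 26.9 and 30.7 CPM in the negative and 47.9, 51.5 and 55.3 CPM in the positive libraries (difference 0.83, adjusted p = 0.00303 with the block and 0.0341 without it), and the receptor kinase gene Axl, at 74.6, 88.3 and 71.95 CPM in the negative and 102, 118 and 98.3 CPM in the positive libraries. Axl rose by 0.44 ± 0.05 (adjusted p = 0.00557 with the block and 0.108 without it), and the groups of both genes lay apart.

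**Figure D5:**
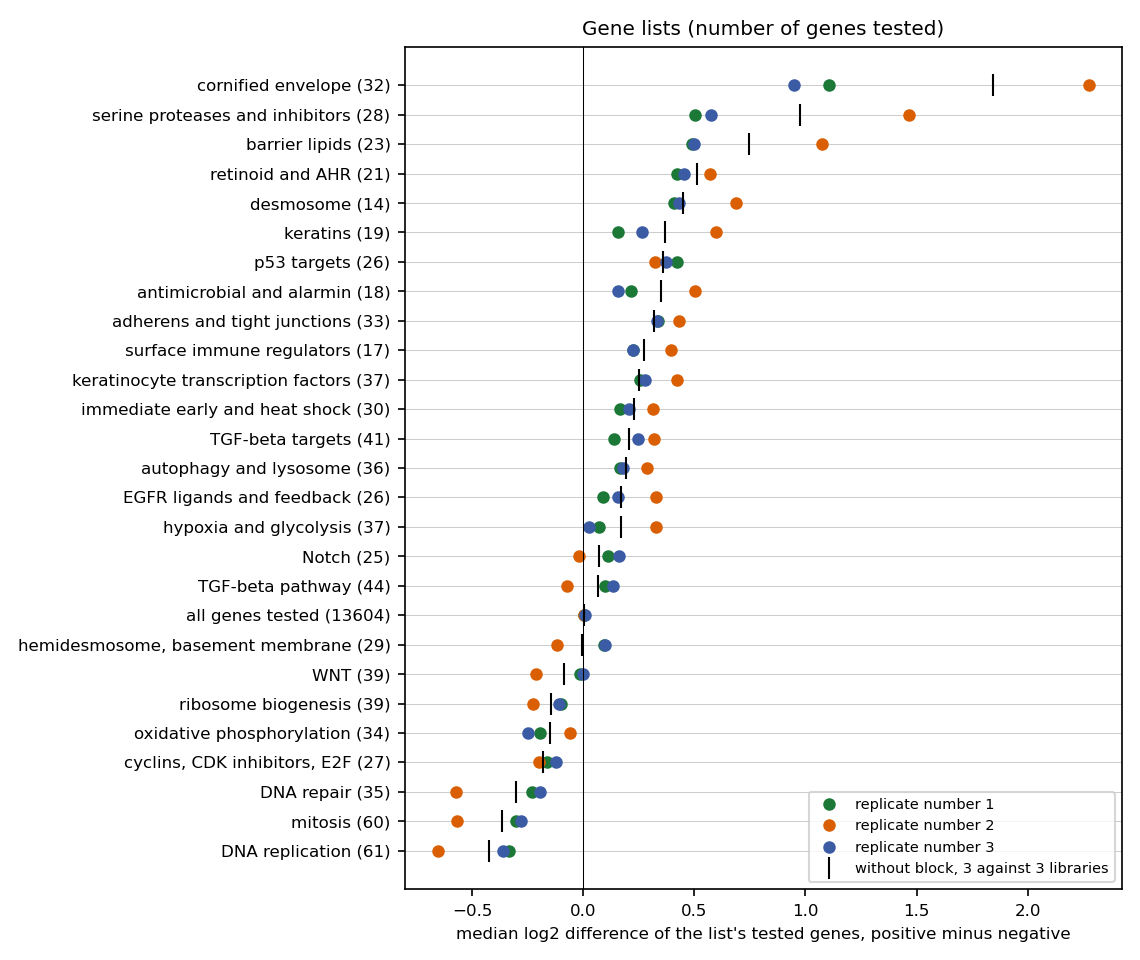
Median log2 difference, positive minus negative, of the tested genes of each list (horizontal axis) within replicate numbers 1, 2 and 3 (coloured points) and without the block (black bar), lists ordered by the latter. The cornified envelope list lies at 1.11, 2.28 and 0.95 within the numbers and the replication list at -0.34, -0.66 and -0.36, while all genes lie at 0.00.

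WNT genes fell more often than they rose. Of 51 listed 39 were tested, of which 8 fell and 2 rose (10.7% of all genes rose and 7.34% fell), with a median of -0.09. Once replicates 1 and 3 were summed, 6 were lower and 0 higher, and without number 1, 2 or 3 8, 12 and 8 were lower and 2, 10 and 0 higher. The ligand Wnt3 was at 14.2, 12.8 and 12.2 CPM in the negative and 5.98, 4.395 and 6.43 CPM in the positive libraries and fell by 1.23 (SE 0.13, adjusted p = 0.0058 with the block and 0.0475 without it). Wnt4 was at 355, 271 and 354 CPM in the negative and 265, 203 and 267 CPM in the positive libraries and fell by 0.42 (adjusted p = 0.00624 with the block and 0.203 without it). Wnt3a was at 58.8, 57.6 and 58 CPM in the negative and 45.9, 40.7 and 45.1 CPM in the positive libraries and fell by 0.41 (adjusted p = 0.00919 with the block and 0.0566 without it). For these ligand genes every positive library lay below every negative one. Wnt16 fell by 2.001 from 1.83 ± 0.769 to 0.453 ± 0.176 CPM, and the antagonist gene Sostdc1 by 1.17 from 29.3 ± 13.9 to 12.8 ± 5.13 CPM.

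In the Notch list, a pathway that drives cells out of the basal layer, 5 of 25 rose and 4 fell (10.7% and 7.34% of all genes). The receptor gene Notch3 was at 26.2, 39.5 and 23.7 CPM in the negative and 50.03, 80.4 and 49.1 CPM in the positive libraries and rose by 1.003 ± 0.05 (adjusted p = 0.00175 with the block and 0.119 without it), and Notch2 rose by 0.39 ± 0.06. The target Nrarp, a feedback inhibitor, was at 119, 116 and 115 CPM in the negative and 158, 209 and 162 CPM in the positive libraries and rose by 0.59 ± 0.09 (adjusted p = 0.0117 with the block and 0.0769 without it). The ligand Dll1 was at 75.1, 64.5 and 70.4 CPM in the negative and 50.9, 39.2 and 51.5 CPM in the positive libraries and fell by 0.58 (adjusted p = 0.00624 with the block and 0.0846 without it). The receptors that changed were thus higher and this ligand lower. With replicates 1 and 3 summed, 3 Notch genes were higher and 4 lower, and the higher ones numbered 3, 11 and 3 without number 1, 2 or 3.

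Among ligands and feedback genes of the EGF receptor 10 of 26 tested rose and 0 fell (10.7% and 7.34% of all genes), 0 without the block. With replicates 1 and 3 summed 5 were higher (without number 1, 2 or 3, 6, 15 and 5). Btc, the ligand betacellulin, was at 1.14, 1.41 and 1.19 CPM in the negative and 2.53, 4.66 and 2.81 CPM in the positive libraries and rose by 1.38 ± 0.19 (adjusted p = 0.00922 with the block and 0.0783 without it). Ereg, epiregulin, was at 143, 50.95 and 136 CPM in the negative and 209, 62.6 and 200.4 CPM in the positive libraries and rose by 0.47 ± 0.07 (adjusted p = 0.00954 with the block and 0.679 without it). Hbegf rose by 0.61 ± 0.14, and the feedback phosphatase gene Dusp6 by 0.31 ± 0.05.

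Of growth factors, receptors and binding proteins of the VEGF, PDGF, FGF and IGF families 4 of 30 rose and 8 fell (10.7% and 7.34% of all genes). With replicates 1 and 3 summed 2 were higher and 4 lower. Igfbp2, which binds insulin-like growth factors, was at 134, 224 and 129 CPM in the negative and 82.2, 158 and 77.5 CPM in the positive libraries and fell by 0.65 (adjusted p = 0.00492 with the block and 0.394 without it). Igfbp6 fell by 0.92 and Fgfr3 by 0.25, while Pdgfb and Vegfa were among those that rose.

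Cytokine genes of the IL-1 family and others gave 6 that rose and 2 that fell among 33 tested (10.7% and 7.34% of all genes). With replicates 1 and 3 summed 4 were higher and 1 lower, and the counts were 6, 10 and 4 higher and 2, 8 and 3 lower without number 1, 2 or 3. Il1a was at 72.96, 29.6 and 71.95 CPM in the negative and 103, 51.99 and 101 CPM in the positive libraries and rose by 0.59 ± 0.07 (adjusted p = 0.007995 with the block and 0.522 without it). Tslp, an epithelial cytokine of allergic inflammation, was at 5.09, 14.7 and 5.45 CPM in the negative and 2.403, 9.61 and 2.49 CPM in the positive libraries and fell by 0.90 (SE 0.14, adjusted p = 0.0125 with the block and 0.592 without it). Replicate 2 of both groups held more Tslp than the others of its group, while the positive library was the lower one within each number. Csf1, a growth factor of macrophages, rose by 0.60 ± 0.10. Of chemokine genes 3 of 16 rose and 2 fell, beside the same shares of all genes. With replicates 1 and 3 summed 1 was higher and 0 were lower (without number 1, 2 or 3, 2, 7 and 1 higher and 0, 2 and 0 lower). Cxcl14, which basal keratinocytes make, fell by 0.26 from 78.2 ± 7.54 to 65.2 ± 4.15 CPM.

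Surface molecules that act on immune cells rose in 7 of 17 tested genes and fell in 0 (10.7% and 7.34% of all genes). With replicates 1 and 3 summed 4 were higher. Beside Cd200, the costimulatory ligand gene Cd80 passed in both fits, at 26.1, 24.9 and 27.1 CPM in the negative and 39.02, 40.4 and 41.3 CPM in the positive libraries with a rise of 0.63 ± 0.06 (adjusted p = 0.00446 with the block and 0.0341 without it). Icosl, another costimulatory ligand, was at 17.9, 21.8 and 20.02 CPM in the negative and 27.6, 35.9 and 28.4 CPM in the positive libraries and rose by 0.62 ± 0.07 (adjusted p = 0.00624 with the block and 0.08297 without it). Cd55, which guards cells against complement, was at 2.16, 2.78 and 1.84 CPM in the negative and 4.996, 5.45 and 5.22 CPM in the positive libraries and rose by 1.22 ± 0.15 (adjusted p = 0.007995 with the block and 0.0523 without it). For these 4 genes replicate 2 was near the other libraries of its group. The leukocyte sum also differed in the same direction within every number, and its part in the result was not tested.

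Of matrix metalloproteinase and plasminogen genes 11 of 28 rose and 2 fell (10.7% and 7.34% of all genes), and with replicates 1 and 3 summed 8 and 0. Serpine2, protease nexin 1, was at 11.1, 25.5 and 12.03 CPM in the negative and 31.8, 37.8 and 34.5 CPM in the positive libraries and rose by 1.18 ± 0.19 (adjusted p = 0.0137 with the block and 0.138 without it). Adam12 rose by 0.52 ± 0.08 from 63.97 ± 15.3 to 93.7 ± 31.8 CPM. Mmp10 and Mmp9 rose by 0.93 ± 0.10 and 0.51 ± 0.05.

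Of genes of NRF2 and glutathione 9 of 39 rose and 6 fell (10.7% and 7.34% of all genes), and with replicates 1 and 3 summed 7 and 2. Every positive library lay above every negative one in 4 of them and below in 4, against 14.6% and 13.6% of all genes. The lower ones numbered 4, 13 and 3 without number 1, 2 or 3. Those that rose were led by alpha-class glutathione transferases: Gsta4 was at 90.9, 337 and 97.3 CPM in the negative and 251, 1267 and 250.4 CPM in the positive libraries and rose by 1.58 ± 0.11 (adjusted p = 0.00227 with the block and 0.317 without it). Gsta1 and Gsta2, whose sequences are near-identical, rose by 2.30 ± 0.35 and 2.07 ± 0.19. Txnrd1 and Gstm1 fell by 0.45 and 1.005.

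Of retinoid and aryl hydrocarbon receptor genes 11 of 21 rose and 0 fell, beside 10.7% and 7.34% of all genes (median 0.51, 10 with replicates 1 and 3 summed). Crabp2, which carries retinoic acid to the nucleus, was at 57.4, 116 and 61.97 CPM in the negative and 135, 380.4 and 128 CPM in the positive libraries and rose by 1.33 ± 0.12 (adjusted p = 0.00447 with the block and 0.1897 without it). Rdh12, a retinol dehydrogenase, was at 10.98, 11.4 and 10.3 CPM in the negative and 21.5, 34.1 and 21.4 CPM in the positive libraries and rose by 1.21 ± 0.13 (adjusted p = 0.0058 with the block and 0.0579 without it). Stra6, a membrane receptor for retinol-binding protein, rose by 0.70 ± 0.06. Of hypoxia and glycolysis genes 9 of 37 rose and 0 fell, beside 10.7% and 7.34% of all genes. With replicates 1 and 3 summed 9 were higher, and 10, 15 and 10 without number 1, 2 or 3. Pfkfb3, which sets the pace of glycolysis, was at 62.1, 48.1 and 60.2 CPM in the negative and 92.7, 123 and 89.6 CPM in the positive libraries and rose by 0.83 ± 0.15 (adjusted p = 0.01897 with the block and 0.0728 without it). Ero1l and P4ha2 rose by 0.52 ± 0.09 and 0.41 ± 0.08.

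Of oxidative phosphorylation genes 11 of 34 fell and 0 rose (7.34% and 10.7% of all genes), with a median of -0.15. All 34 differences were negative. Once replicates 1 and 3 were summed, 1 was lower, and without number 1, 2 or 3 the count was 1, 33 and 1. Sdhd, a subunit of complex II, was at 189, 186 and 200 CPM in the negative and 149.6, 146 and 145 CPM in the positive libraries and fell by 0.39 (SE 0.05, adjusted p = 0.008598 with the block and 0.0484 without it). Its groups lay apart and the 3 numbers were alike. Of ribosome biogenesis genes 9 of 39 fell and 0 rose (median -0.15), with 0 called with replicates 1 and 3 summed and 2, 26 and 0 without number 1, 2 or 3. Fbl, fibrillarin of the nucleolus, fell by 0.28 from 88.01 ± 6.03 to 72.5 ± 5.14 CPM.

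Of cholesterol and fatty acid genes 7 of 33 rose and 1 fell, beside 10.7% and 7.34% of all genes. The counts were 1 and 0 with replicates 1 and 3 summed, and 5, 15 and 2 higher without number 1, 2 or 3. The desaturase gene Scd2 rose by 0.62 ± 0.05 and Sqle, an early enzyme of sterol synthesis, by 0.32 ± 0.05. Of autophagy and lysosome genes 14 of 36 rose and 0 fell, beside the same shares of all genes. The higher ones numbered 3 with replicates 1 and 3 summed, and without number 1, 2 or 3 the count was 8, 21 and 6. Atg9b, a membrane protein of autophagy, was at 45.7, 36.4 and 41.3 CPM in the negative and 92.2, 85.7 and 94.8 CPM in the positive libraries and rose by 1.15 ± 0.06 (adjusted p = 0.00175 with the block and 0.0341 without it). Laptm4a and Ulk1 rose by 0.36 ± 0.05 and 0.27 ± 0.05.

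Immediate early and heat shock genes, which tissue dissociation is known to induce, were measured beside these groups. Of 30 tested 14 rose and 0 fell (10.7% and 7.34% of all genes), 0 of them without the block. Every positive library lay above every negative one in 2 of them and below in 1, against 14.6% and 13.6% of all genes. A total of 4 were higher with replicates 1 and 3 summed, and without number 1, 2 or 3 the count was 7, 18 and 5. Atf3 was at 609, 163 and 607 CPM in the negative and 825, 224 and 819 CPM in the positive libraries and rose by 0.44 ± 0.05 (adjusted p = 0.00597 with the block and 0.775 without it). Zfp36 was at 994, 382 and 941 CPM in the negative and 1244, 555 and 1242 CPM in the positive libraries and rose by 0.42 ± 0.06 (adjusted p = 0.0103 with the block and 0.6998 without it). In these genes replicate 2 of both groups was the lowest, unlike in the envelope genes, where positive replicate 2 was the highest. Klf4, which is also a differentiation factor, was at 251, 232 and 237 CPM in the negative and 361, 473 and 354 CPM in the positive libraries and rose by 0.71 ± 0.10, and its groups did not overlap. Other genes described above share the low level of replicate 2 in both groups, among them Bhlhe40, Btg2, Ereg, Smad7, Il1a, Cldn4, Plk2 and Zfp750. The part of handling in these genes was not tested.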

How the data were processed

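The 6 tumor libraries were RNA-seq of sorted cells, made from Trizol-extracted RNA with Illumina TruSeq v2 kits, per the labels' protocols. The deposited values are whole-number counts per Ensembl gene, not normalized. FastQC and STAR and the build mm10 (GRCm38) are named in the submitters' processing notes. The tool that made the counts, its strand setting and its annotation are not stated in any source used here, and reads of overlapping or antisense genes cannot be told apart. The table held 53801 gene rows and 4 columns of no sample, which were left out. Gene names came from the deposited macrophage table, with 75 replaced through GENCODE M21, and promoters from RefSeq (GRCm38.p6).

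Genes were filtered with filterByExpr, scaled by TMM and tested with edgeR 4.0.16 (glmQLFit and glmQLFTest, R 4.3.3) in 2 fits, one of which took the replicate number as a block, with Benjamini-Hochberg adjustment over 13604 genes and a threshold of 0.05. The fit without the block was set as the main one. The fits had biological coefficients of variation of 0.188 (no block) and 0.0764 (block) and left 4 and 2 residual degrees of freedom. Same-numbered libraries deviated together from their group means (correlations of 0.449, 0.703 and 0.488), so the numbers were taken to pair the samples, though negative 1 and positive 3 and negative 3 and positive 1 correlated as much, at 0.488 and 0.483. The fits were tested on simulated data. Depth was 27951632 to 35088897 counts per library.

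The genes to compare were set out as 44 lists with 1362 entries, of which 5 matched no gene. The members and lists were chosen with earlier results of these data known, so counts per list are no independent test. Named genes were the 12 largest changes in each direction without the block, the 20 with the largest smallest within-number change in each direction with it, both from a mean of 1 CPM, and up to 6 members per list by the p-value with the block, with the marker genes. Cdc7, Chaf1a, Mcm5, Ctgf, Pmepa1, Smad2, Smad3, Smad4, Smad7, Tgfb1, Tgfbi, Tgfbr1 and Tgfbr2 fall outside this rule; their values were known when they were added. Alternatives were DESeq2 1.42.0, other scaling factors and filters, an unadjusted threshold, summing replicates 1 and 3, and leaving out libraries. Some list members are not reported here.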

Additional observations from a re-analysis of the deposited data

How the results depend on the processing

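The replicate block decided how many genes passed. Without the block 78 genes were higher and 32 lower, and with it 1450 and 999, all 110 of the former included in the same direction. The counts without the block were 173 higher with no filter on low counts, 707 higher and 451 lower with DESeq2, 657 and 400 at an unadjusted p under 0.01, and 0 and 0 with replicates 1 and 3 summed (edgeR, 2642 genes at an unadjusted p under 0.05 before summing). Leaving out 1 library at a time gave 0 to 391 higher and 0 to 230 lower: 0 and 0 without negative replicate 1 or 3 or positive replicate 3, 1 and 0 without positive replicate 1, 8 and 2 without negative replicate 2, and 391 and 230 without positive replicate 2. With the replicate block the counts were 691 higher and 244 lower with replicates 1 and 3 summed and 644 lower with DESeq2 (1043 higher). They ranged from 803 to 2927 higher and from 340 to 2802 lower when 1 number was left out: 1055 and 498 without number 1, 2927 and 2802 without number 2, and 803 and 340 without number 3. Replicates 1 and 3 differed little beyond counting error, so the fits without number 2 rest on near-identical libraries. Of the 2449 genes called with the block, 2435 were called in the same direction without number 2, 1342 without number 1, 1073 without number 3 and 1594 by DESeq2, and 0 in the opposite direction in any of these. Other scaling factors and a stricter filter kept all 4 counts within 1.5 times. Among the gene lists with the block, DESeq2 gave 5 cell cycle regulators lower in place of 10, 2 unfolded protein response genes lower in place of 4, 2 interferon genes higher in place of 4 and 0 WNT genes higher in place of 2. With no filter on low counts 19 DNA repair genes were lower in place of 12, 14 hypoxia genes higher in place of 9, 7 interferon genes in place of 4, 5 transition genes in place of 2 and 4 WNT genes in place of 2. No result reversed under any alternative run.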

Other observations

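Interferon-stimulated genes rose in 4 of 27 tested and fell in 0, beside 10.7% and 7.34% of all genes, and unfolded protein response genes rose in 4 and fell in 4 of 29. Without number 1, 2 or 3 the interferon genes that were higher numbered 2, 10 and 2, and the unfolded protein response genes that were lower 0, 10 and 0. Circadian clock and output genes rose in 3 of 18 and fell in 1 (without number 1, 2 or 3, 3, 8 and 3 higher). Genes of hair follicle and tumor stem cells rose in 4 of 17 and fell in 3, with 0 called without the block. These counts too stand beside 10.7% and 7.34% of all genes. Hlf, a clock-output transcription factor, was at 13.3, 15.4 and 14.4 CPM in the negative and 8.85, 9.25 and 8.71 CPM in the positive libraries. It fell by 0.68 (adjusted p = 0.00748 with the block and 0.0477 without it, edgeR). Sox9, a factor of hair follicle stem cells, was at 34.9, 22.1 and 33.4 CPM in the negative and 52.5, 29.8 and 49.9 CPM in the positive libraries, and its groups overlapped. It rose by 0.54 ± 0.06 (adjusted p = 0.00624 with the block, edgeR), while Tbx1 fell by 0.68. Oasl1, an interferon-stimulated gene, was at 0.626, 0.36 and 0.567 CPM in the negative and 1.77, 2.85 and 1.71 CPM in the positive libraries and rose by 1.97 ± 0.32 (adjusted p = 0.0142 with the block and 0.0584 without it, edgeR). Among 3 tested markers of muscle, melanocytes and nerve 0 passed, and among the leukocyte markers H2-Ab1, Lyz2 and Csf1r, genes of macrophages and other antigen-presenting cells, rose by 0.62, 0.43 and 0.54 on the log2 scale, with no leukocyte marker whose groups lay apart. Without the block 0 of these 3 passed. H2-Ab1 alone passed with DESeq2 and with replicates 1 and 3 summed, and without number 3 Lyz2 and Csf1r did not pass (adjusted p = 0.0711 and 0.131, edgeR), nor did Csf1r without number 1 (0.0885). The share of genes that rose was 6.47% in the lowest of 4 equal bins of mean CPM and 12.3% in the highest, and the share that fell was 1.65% and 11.6%. The next gene was picked once its values were known. Sycp1, a gene of the meiotic synaptonemal complex, was at 3.96, 0.0982 and 4.68 CPM in the negative and 0.538, 0.0984 and 0.746 CPM in the positive libraries. The gap was in replicates 1 and 3 alone, replicate 2 had 3 counts in each group, and the fit with the block still called it (adjusted p = 0.00825, edgeR).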
